A study of Mus musculus with 4 samples.

Results

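Several glycolytic enzymes of the testis come as pairs of genes, a somatic gene used in most tissues and a sperm-specific paralog. Described here across 4 testis libraries are 10 glycolytic genes, among which Hk1 stands without a sperm-specific paralog. They were chosen by gene symbol in the count table: the somatic genes Hk1, Gapdh, Pgk1, Eno1, Ldha and Ldhb and the sperm-specific genes Gapdhs, Pgk2, Eno4 and Ldhc. All 10 were found among the 25265 genes of the table, and all 10 passed the filter on low counts, which left 21132 genes. The study sequenced ribosomal RNA-depleted total RNA of whole testis from C57BL/6 mice at postnatal day 56 on an Illumina HiSeq Xten instrument. Of the 4 libraries, 2 carry the label control and 2 the label Ythdf2-vKO. The series title calls the mutants germ cell-specific. The transgene that drives the deletion, the deleted segment and the exact genotype of the controls are not given in the sources used here. Neither is it stated whether each library came from its own mouse, so the spread between libraries may be technical.

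Glycolysis turns glucose into pyruvate and yields ATP, and sperm run it along the tail to power swimming. The enzymes there are largely isoforms made only in germ cells: GAPDHS is fixed to the fibrous sheath of the tail, PGK2 is encoded by an intronless copy of the X-linked Pgk1, ENO4 is the sperm enolase and LDHC the sperm lactate dehydrogenase. The X chromosome is silenced in male meiosis, and Pgk2, on an autosome, is transcribed from meiosis onward. Sertoli cells, the nurse cells of the seminiferous epithelium, use the somatic enzymes to make lactate, which they pass to the germ cells. YTHDF2 binds mRNA carrying N6-methyladenosine and brings it to degradation.

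Total counts were between 24862518 and 29561182 per library. The level of the targeted gene went against the labels. Ythdf2 had 51.0 and 53.5 CPM (reads relative to library size, scaled by TMM) in the control libraries and 66.3 and 67.0 CPM in those labelled vKO. On the log2 scale it differed by 0.35 (SE 0.13; edgeR adjusted p = 0.238). With the deleted segment not given, a gene count in whole testis cannot check a germ cell-specific deletion. The groups are named by their labels. The tissue label was compared with marker genes. Elongating spermatid genes were abundant, with a summed level of 9079 to 11792 CPM, and Sertoli cell genes summed to 827 to 1184 CPM. Counts and medians for every marker list stand beside the comparisons below. Library deviations from the mean level also tracked the GC content of transcripts, with Spearman correlations across genes of 0.02 and -0.40 in control replicates 1 and 2 and 0.25 and 0.19 in the vKO replicates.

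Sequence decides whether the counts of paralogs can be kept apart, so the pair with the closest coding sequences is shown first. Pgk1 (ENSMUSG00000062070) lies on chromosome X from 106187100 to 106203699, plus strand, in GRCm38 (GENCODE M21), and its coding transcript has 11 exons. Pgk2 (ENSMUSG00000031233) lies on chromosome 17 from 40207015 to 40208640, minus strand, in 1 exon. Both coding sequences are 1254 bases long, and 79.3% of the aligned bases were identical. The first 90 coding bases follow from the GENCODE M21 transcripts, with capitals at the 23 bases where the genes differ.
Pgk1: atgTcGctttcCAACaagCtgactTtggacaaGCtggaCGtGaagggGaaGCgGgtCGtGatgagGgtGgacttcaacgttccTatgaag
Pgk2: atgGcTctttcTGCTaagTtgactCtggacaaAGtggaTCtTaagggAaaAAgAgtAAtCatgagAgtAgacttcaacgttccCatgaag

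The longest stretch shared without a difference by the transcripts of this pair was 22 bases. Coding identity was 71.7% for Gapdhs and Gapdh, 73.7% for Ldhc and Ldha, 65.4% for Ldhc and Ldhb, 73.3% for Ldha and Ldhb and 58.9% for Eno4 and Eno1. The longest identical stretch between the transcripts of these pairs ran from 11 to 20 bases.

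Processed copies of the somatic genes are another matter. Gapdh had 22 genes in the table whose transcripts were at least 95% identical to it over at least 300 bases, and their counts summed to 20.8% of those of Gapdh. The most counted were the processed pseudogenes Gm3200 (98.6% identical, 311 counts over the 4 libraries), Gm7336 (99.8%, 257 counts) and Gm5559 (99.9%, 245 counts). Eno1 had 2 such copies, Eno1b (99.5% identical over 1736 bases, 2228 counts) and Gm4735 (99.6%, 679 counts), with 5.74% of its counts together. The single copies of Pgk1 and Ldha held 0.616% and 0.0438%, and the other 6 genes had none. That of Pgk1, the processed pseudogene Pgk1-rs7, was 100% identical over 1255 bases and had 12 counts. How reads that fit a gene and its copy were counted is not stated, so the counts of Gapdh, Eno1 and Pgk1 are uncertain. The shares above need not bound the error, because reads counted for neither row would not appear in them.

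Neighbouring genes touched 4 of the 10. On the opposite strand, Iffo1 shares 68 exonic bases with Gapdh, Hspa12a 166 with Eno4, Tmem147os 162 with Gapdhs and Hk1os 157 with Hk1. The libraries were directional, but whether the counting used strand is not stated. Counts were 1763 to 1873 for Iffo1, 434 to 508 for Hspa12a, 81 to 96 for Tmem147os and 23 to 46 for Hk1os.

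The start regions of 2 pairs are shown as examples, an X-linked gene with its autosomal copy (Pgk1 and Pgk2) and a pair of neighbours on the same chromosome (Ldha and Ldhc). The windows run from 250 bases before to 50 bases after the start and come from RefSeq (GRCm38.p6), which held windows for all 10 genes. They are Pgk1 at chrX:106186850-106187149 (plus strand), Pgk2 at chr17:40208560-40208859 (minus), Ldha at chr7:46845554-46845853 (plus) and Ldhc at chr7:46861013-46861312 (plus). Capitals mark matches, on either strand, to GGGCGG (GC box), TGACG (core of the cAMP response element, also part of the full TGACGTCA), CCAAT and TATAAA.
Pgk1: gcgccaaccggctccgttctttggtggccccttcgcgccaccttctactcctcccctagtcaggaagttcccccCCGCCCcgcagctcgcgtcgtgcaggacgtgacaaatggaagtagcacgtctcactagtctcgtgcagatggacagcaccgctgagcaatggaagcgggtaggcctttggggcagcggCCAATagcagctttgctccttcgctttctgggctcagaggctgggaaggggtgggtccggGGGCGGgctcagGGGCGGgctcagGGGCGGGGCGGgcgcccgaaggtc
Pgk2: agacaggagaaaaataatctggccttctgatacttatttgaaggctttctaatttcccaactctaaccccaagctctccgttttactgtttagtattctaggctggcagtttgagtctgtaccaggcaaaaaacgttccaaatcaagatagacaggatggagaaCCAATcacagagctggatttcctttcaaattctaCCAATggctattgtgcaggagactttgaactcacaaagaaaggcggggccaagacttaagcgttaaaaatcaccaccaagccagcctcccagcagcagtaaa
Ldha: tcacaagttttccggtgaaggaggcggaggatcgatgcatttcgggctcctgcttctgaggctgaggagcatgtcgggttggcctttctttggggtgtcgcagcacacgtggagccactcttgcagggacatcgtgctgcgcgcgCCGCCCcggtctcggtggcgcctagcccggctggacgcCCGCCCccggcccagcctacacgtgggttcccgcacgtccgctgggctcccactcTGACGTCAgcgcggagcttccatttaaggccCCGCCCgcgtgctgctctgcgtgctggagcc
Ldhc: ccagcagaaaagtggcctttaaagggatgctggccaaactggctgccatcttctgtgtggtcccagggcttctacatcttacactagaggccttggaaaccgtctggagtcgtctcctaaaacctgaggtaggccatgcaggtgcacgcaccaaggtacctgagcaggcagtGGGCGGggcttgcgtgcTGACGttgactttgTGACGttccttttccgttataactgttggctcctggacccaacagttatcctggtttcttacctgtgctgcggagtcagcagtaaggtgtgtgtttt

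The Pgk1 window held 24 CpG dinucleotides and that of Pgk2 4, against a median of 7 over 32851 windows of all genes. Ldha and Ldhc have 2 windows each, with 30 CpG in the shown and 13 in the other window of Ldha, and 9 and 3 in those of Ldhc. The Gapdh window had 12 CpG, and the 2 Gapdhs windows had 1 and 4. Eno4 did not share this feature: its window held 24 CpG, as many as 1 of the 3 windows of Eno1, which had 14, 24 and 25. Hk1 had 2 windows with 20 and 1 CpG, at separate starts, and Ldhb had 17. A GC box occurred in the shown windows of Pgk1, Ldha and Ldhc and in 2 of Eno1, but not in the other windows of Ldha and Ldhc, against 35.7% of all windows. The TGACG core was present in both windows of Ldha, in the shown window of Ldhc but not its other one, and in 1 of Gapdhs, against 20.8% of all windows, and the full TGACGTCA only in the shown window of Ldha among the 16 windows of the 10 genes, against 1.79% of all windows. No window of the 10 genes had TATAAA, which 13.6% of all windows hold. CCAAT occurred in the windows of Pgk1, Pgk2, Eno1 and Ldhb, against 37.4%. These are matches of letters only.

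A short form of the methylation consensus, GGACT, was counted in the coding transcripts on the transcribed strand, since YTHDF2 reads methylated adenosines in RNA. It occurred 9 times in Hk1, 6 times in Eno4, 4 times in Pgk1, 3 times in Gapdhs, 2 times each in Pgk2 and Ldhc and once each in Eno1 and Ldha. Gapdh and Ldhb had no match. Per kilobase, the counts ran from 0 to 2.34, against a median of 1.03 over 17297 protein-coding genes, of which 91.5% had at least 1 match. That median used the longest transcript of each gene. For Hk1 (4278 bases) and Gapdh (3289 bases) this is longer than the transcript counted here (3851 and 1273 bases). A match does not show that the site is methylated.

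Together the 10 genes took 0.707% to 0.787% of the counts of a library, and the 4 sperm-specific genes 0.402% to 0.446%. Levels between genes were compared as RPKM, which relates counts to the length of merged exons and to the library total. Ldhc was the most abundant, at 1367 ± 68.6 RPKM (SD, n = 4 libraries). It was followed by Gapdhs (768 ± 101), Pgk2 (437 ± 44.9), Ldha (289 ± 25.7), Hk1 (181 ± 34.0), Eno1 (87.6 ± 12.4), Ldhb (67.6 ± 11.1), Eno4 (30.6 ± 0.818), Gapdh (19.4 ± 3.40) and Pgk1 (8.10 ± 0.844). The first 3 places thus went to sperm-specific genes and the last 2 to somatic genes. Each of the 9 neighbouring pairs stood in this order in 4 of 4 libraries. Eno1 and Ldhb were the closest pair, with mean levels 1.30-fold apart, and their SDs overlapped.

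Length changed the middle of this order. Merged exons of Gapdh, Eno1, Ldha and Hk1 include alternative transcripts, and with the length of the longest transcript Ldha came to 527 RPKM, above Pgk2 at 437, Hk1 stood at 361 and Eno1 at 232. On that scale 7 of the 9 neighbouring pairs kept 1 order in every library. With the transcript of the longest coding sequence, an alternative chosen after seeing the data, Gapdh came to 62.9 RPKM, above Eno4 at 30.6, and Hk1 to 401. Ldhc and Gapdhs remained the most abundant and Pgk1 the least on all 3 scales. The level of Pgk1 is uncertain because of its identical copy.

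**Figure D1:**
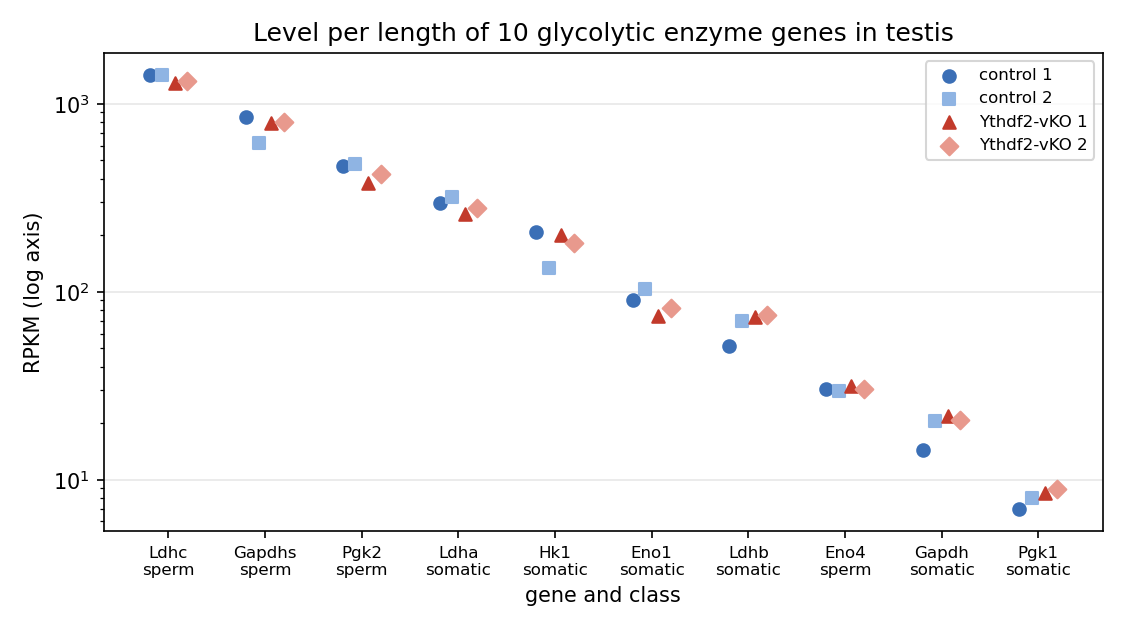
Level of each gene in RPKM on a log axis, ordered by the mean over 4 libraries; every point is 1 library. Ldhc stands highest, near 1367 RPKM on average, and Pgk1 lowest, near 8.10 RPKM, and the spread between libraries is small beside the distance between most genes.

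Hexokinase traps glucose in the cell as its phosphate, and Hk1 gives rise to somatic transcripts and to spermatogenic ones with other first exons. Hk1 (ENSMUSG00000037012, chromosome 10, 62268855 to 62379908, minus strand) has 20 annotated transcripts, and its gene count cannot separate them. Its level was 1899 and 1120 CPM in the controls against 1678 and 1507 CPM in the vKO-labelled libraries. The vKO libraries lay between the control libraries. Its log2 fold change was 0.08 (SE 0.22), with a 95% interval from -0.43 to 0.58. Control replicate 1 exceeded control replicate 2 by 0.76 on the log2 scale, the widest gap among the 10 genes, so the direction depended on which control was used. Without control replicate 1 the log2 fold change was 0.50, and without control replicate 2 it was -0.25. It was also below 0 without vKO replicate 1 (-0.0026) and with an offset for GC content (-0.04).

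Glyceraldehyde-3-phosphate dehydrogenase is the step that makes NADH. The sperm-specific Gapdhs (ENSMUSG00000061099, chromosome 7, 30729775 to 30743681, minus strand) had the same pattern as Hk1. Its level was 1458 and 985 CPM in the controls against 1255 and 1262 CPM in the vKO-labelled libraries, which again fell between the controls. The log2 fold change was 0.04 (SE 0.16), with a 95% interval from -0.31 to 0.40, and it was 0.35 without control replicate 1, -0.21 without control replicate 2 and -0.05 with the GC offset.

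The somatic Gapdh (ENSMUSG00000057666, chromosome 6, 125161715 to 125166467, minus strand) differed from it. It had 63.1 and 83.5 CPM in the controls against 88.9 and 83.5 CPM in the vKO-labelled libraries. Control replicate 1 was the low library here, and the other 3 lay close together, with control replicate 2 (83.489 CPM) barely below vKO replicate 2 (83.511 CPM). Its log2 fold change was 0.23 (SE 0.15), with a 95% interval from -0.08 to 0.55, and did not pass (adjusted p = 0.521, edgeR). Without control replicate 1 it was 0.04, and without control replicate 2 it was 0.45.

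Phosphoglycerate kinase makes the ATP of the middle of the pathway. Pgk2 had 811 and 764 CPM in the controls against 607 and 668 CPM in the vKO-labelled libraries. The groups did not overlap. This was a log2 fold change of -0.31 (SE 0.12), or -19.1%, at an unadjusted p of 0.0221, and it did not pass over all genes (adjusted p = 0.262, edgeR). Its change of -0.31 moved to between -0.24 and -0.38 when 1 library at a time was left out. With the GC offset it was -0.25 (edgeR unadjusted p = 0.0546). Pgk1 had 16.6 and 17.8 CPM in the controls against 18.7 and 19.5 CPM in the vKO-labelled libraries, which is a log2 change of 0.15 (SE 0.15; edgeR adjusted p = 0.724). The sperm-specific and the X-linked gene thus stood on opposite sides of 0, and neither passed.

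Enolase makes phosphoenolpyruvate. Eno1 (ENSMUSG00000063524, chromosome 4, 150236721 to 150248879, plus strand) had 518 and 548 CPM in the controls against 392 and 430 CPM in the vKO-labelled libraries, with no overlap. Of the 10 genes it had the largest difference, a log2 fold change of -0.37 (SE 0.12), or -22.8%, with a 95% interval from -0.63 to -0.12. At an unadjusted p of 0.00744 it did not pass over all genes (adjusted p = 0.19, edgeR). The transcript of Eno1 has the highest GC content of the 10 (57.4%), and with the GC offset its log2 fold change was -0.54. Its near-identical copies Eno1b and Gm4735 had 461, 676, 484 and 607 and 147, 208, 146 and 178 counts in control replicates 1 and 2 and vKO replicates 1 and 2.

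Eno4 (ENSMUSG00000048029, chromosome 19, 58943425 to 58971421, plus strand) had 83.5 and 75.4 CPM in the controls against 80.0 and 75.8 CPM in the vKO-labelled libraries. Its log2 fold change was -0.03 (SE 0.13), with a 95% interval from -0.30 to 0.25, and turned to 0.04 with library totals alone or without control replicate 1, and to 0.0093 without vKO replicate 2. Among the 10 genes its level per length varied least between libraries in relation to its mean, at 30.6 ± 0.818 RPKM (SD, n = 4).

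Lactate dehydrogenase interconverts pyruvate and lactate. LDHA is the subunit typical of muscle, LDHB that of heart, and LDHC that of germ cells. Ldha (ENSMUSG00000063229, 46841475 to 46855627) and Ldhc (ENSMUSG00000030851, 46861203 to 46878142) are neighbours on the plus strand of chromosome 7. Ldhb (ENSMUSG00000030246) is on chromosome 6 (142490249 to 142507957, minus strand). Ldhc had 2391 and 2225 CPM in the controls against 2008 and 2036 CPM in the vKO-labelled libraries, without overlap, and the log2 difference was -0.19 (SE 0.11), which did not pass (edgeR adjusted p = 0.49). Ldha had 1045 and 1046 CPM in the controls against 847 and 899 CPM in the vKO-labelled libraries, also without overlap. The log2 difference was -0.26 with SE 0.11 (edgeR unadjusted p = 0.0395, adjusted p = 0.324). Ldhb went the other way, with 85.6 and 109 CPM in the controls against 113 and 115 CPM in the vKO-labelled libraries, a log2 difference of 0.23 with SE 0.14 (edgeR adjusted p = 0.493). As with Gapdh, control replicate 1 was the low library of Ldhb, and its log2 fold change was 0.06 without that library and 0.42 without control replicate 2.

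Read together, edgeR called 0 of the 10 genes at an adjusted p under 0.05, where it called 0.393% of all genes, 0.279% higher and 0.114% lower. A DESeq2 test also called 0, against 1.32% of the genes it could adjust. At an unadjusted p under 0.05 there were 3 of 10, Pgk2, Eno1 and Ldha, all on the lower side, against 14.1% of all genes tested in either direction and 6.47% in this one. This set depended on the fit. The edgeR unadjusted p of Pgk2 was 0.0546 with the GC offset, and that of Ldha 0.0872 with library totals alone. With the replicate block, Gapdh (0.0482) and Ldhb (0.035) came under 0.05 on the higher side. For these 10 genes the authors' deposited table holds the same values as the DESeq2 test above, so it is not a separate result. In it Pgk2, Eno1 and Ldha also had an unadjusted p under 0.05, and the DESeq2 adjusted p was 0.311 for Pgk2, 0.168 for Eno1 and 0.4 for Ldha. The groups did not overlap for 7 of the 10, against 45.3% of all genes, with 4 on the lower side (Pgk2, Eno1, Ldha, Ldhc; 22.6% of all genes) and 3 on the higher (Gapdh, Pgk1, Ldhb; 22.7%). Of the sperm-specific genes 3 of 4 and of the somatic genes 2 of 6 had a log2 fold change below 0, against 49.7% of all genes, with medians of -0.11 and 0.11, and that of all genes tested was 0.00265. Hk1 is placed with the somatic genes here, although its count cannot separate somatic from spermatogenic transcripts. The split did not follow the class of the genes, because the somatic Ldha and Eno1 stood on the side of Pgk2 and Ldhc.

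Leaving out a control library moved several genes past the threshold, in fits whose remaining lone control library was assumed to vary like the vKO libraries. Calls over all genes rose as well, to 4.72% higher and 2.09% lower without control replicate 1 and to 2.53% higher and 2.39% lower without control replicate 2. Without control replicate 1 these were Hk1 (log2 fold change 0.50, adjusted p = 0.000245), Gapdhs (0.35, adjusted p = 0.0231) and Eno1 (-0.42, adjusted p = 0.0052), all by edgeR. Without control replicate 2 they were Gapdh (0.45, adjusted p = 0.0333), Ldhb (0.42, adjusted p = 0.0422) and Pgk2 (-0.35, adjusted p = 0.031), also by edgeR. Eno1 and Pgk2 kept similar values in both fits, with Eno1 at -0.33 (edgeR adjusted p = 0.0536) without control replicate 2 and Pgk2 at -0.27 (edgeR adjusted p = 0.116) without control replicate 1.

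**Figure D2:**
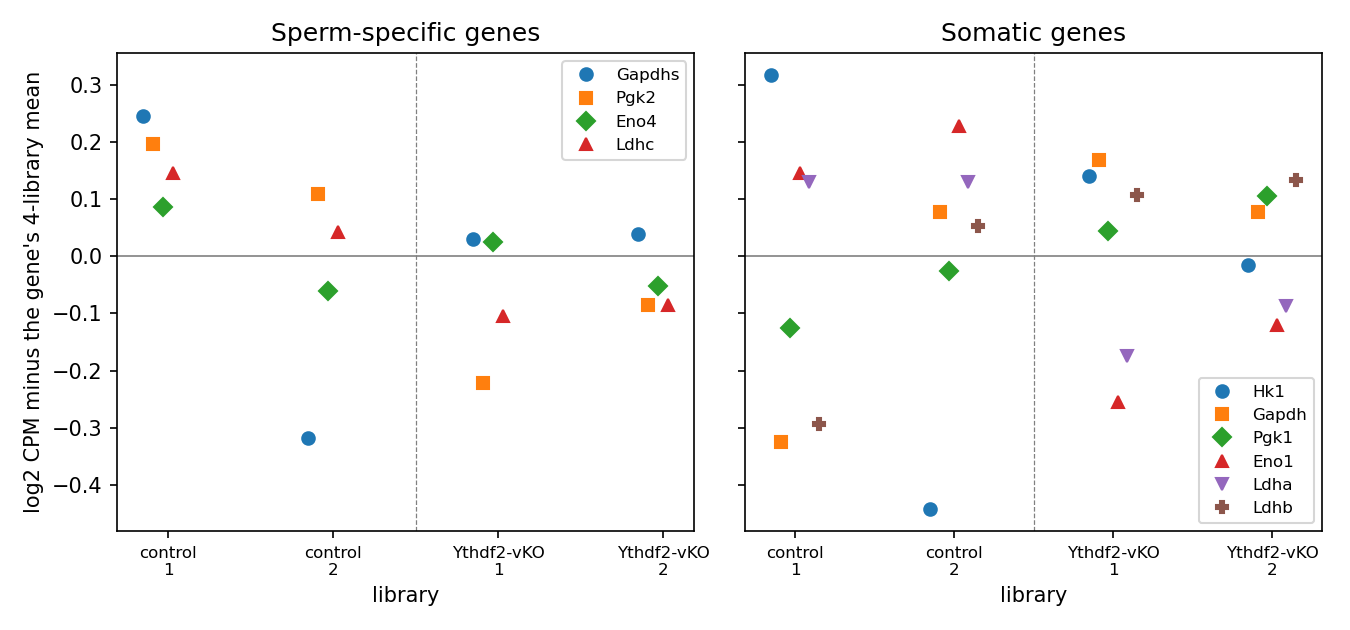
Log2 CPM of each gene minus its mean over the 4 libraries, with sperm-specific genes on the left and somatic genes on the right; every point is 1 gene in 1 library. Gapdhs and Hk1 are high in control replicate 1 and low in control replicate 2, Gapdh and Ldhb are low in control replicate 1, and Pgk2, Ldhc, Eno1 and Ldha are above 0 in both controls and below 0 in both vKO libraries.

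For each gene the most similar profile was sought among the other 9 genes and 50 further genes of sugar and pyruvate metabolism. Likeness was the root mean square difference of centred log2 CPM over the 4 libraries, which share their depth and scaling. Pgk2 and Ldha were each other's nearest (0.043), and so were Gapdh and Ldhb (0.046). Eno1 was also nearest to Ldha (0.066). Ldhc was nearest to Aldoart1, a germ cell aldolase (0.030), Hk1 to Pdk2, a kinase of the pyruvate dehydrogenase complex (0.037), and Gapdhs to Slc2a5, a hexose carrier (0.067). Eno4 was nearest to Slc16a7, a lactate carrier (0.037), and Pgk1 to Pdp1, a phosphatase of the pyruvate dehydrogenase complex (0.051). With 4 libraries these values describe the profiles and test nothing.

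Ratios within a library need no scaling between libraries, and they give the level of the sperm-specific gene relative to its paralog in whole testis. The part of the mix of cell types in these ratios was not tested. Pgk2 exceeded Pgk1 per length 67.4-fold and 59.3-fold in the controls against 44.8-fold and 47.3-fold in the vKO-labelled libraries. The groups did not overlap. On the log2 scale the ratio was lower by a difference of -0.46 in the vKO libraries, and the same-number differences were -0.59 and -0.33. In the fit with the GC offset the log2 fold changes were -0.25 for Pgk2 and 0.16 for Pgk1. Ldhc exceeded Ldhb 27.8-fold and 20.3-fold in the controls against 17.6-fold in both vKO libraries, a log2 difference of -0.43, again without overlap. That difference was -0.21 without control replicate 1 and -0.66 without control replicate 2.

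Eno4 is the exception among the sperm-specific genes, because it was below its paralog in every library. Its ratio to Eno1 was 0.337 and 0.288 in the controls against 0.427 and 0.369 in the vKO-labelled libraries, a log2 difference of 0.35 without overlap. In the fit with the GC offset the log2 fold changes were -0.055 for Eno4 and -0.54 for Eno1. For the pair of Ldhc and Ldhb they were -0.16 and 0.16.

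Gapdhs exceeded Gapdh 59.3-fold and 30.3-fold in the controls against 36.2-fold and 38.8-fold in the vKO-labelled libraries, so the control libraries enclosed the others. The log2 difference was -0.18, and without control replicate 1 it was 0.31. Ldhc to Ldha stood at 4.79 and 4.46 in the controls against 4.97 and 4.74 in the vKO-labelled libraries, with a log2 difference of 0.07. It ran from 0.02 to 0.12 when 1 library at a time was left out. In the fit with the GC offset the log2 fold changes were -0.16 for Ldhc and -0.29 for Ldha. Exact two-sided permutation tests over the 4 libraries gave p = 0.333 for Pgk2/Pgk1, Ldhc/Ldhb and Eno4/Eno1, which is the smallest p that 2 against 2 libraries allow. They gave 0.667 for Ldhc/Ldha and 1 for Gapdhs/Gapdh. Adjusted over the 5 pairs, the lowest of these exact values was 0.556, so no pair could be shown to differ between the groups.

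**Figure D3:**
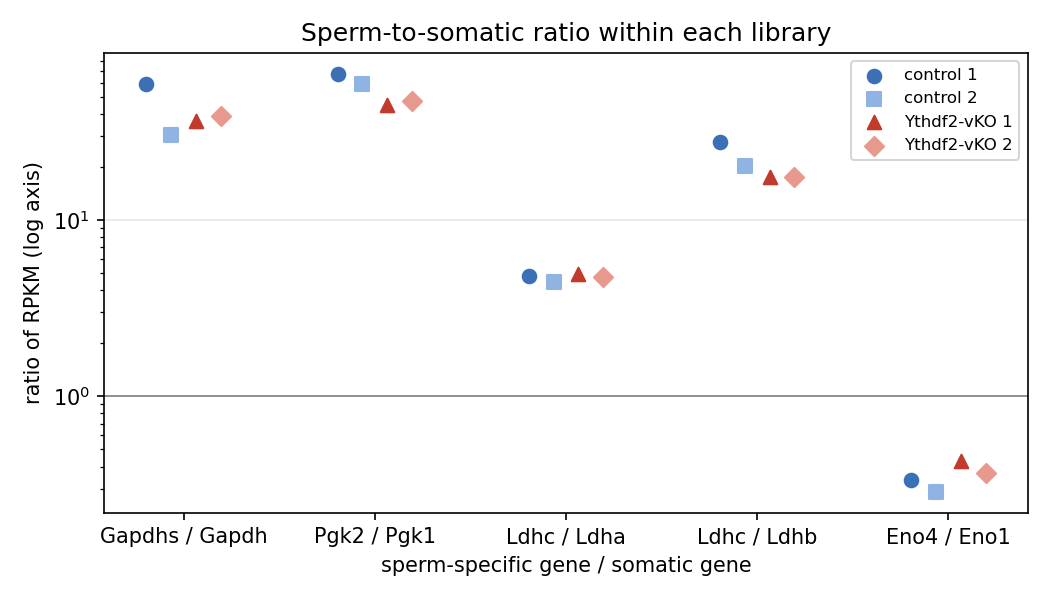
Ratio of the level per length of a sperm-specific gene to that of its somatic paralog within each library, on a log axis with a line at 1; every point is 1 library. The ratios of Pgk2 to Pgk1 and Ldhc to Ldhb are lower in both vKO libraries than in both controls, that of Eno4 to Eno1 is higher and lies below 1 throughout, and that of Ldhc to Ldha overlaps between the groups.

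The size of these ratios depended on the length used, which cancels from their differences between groups. With the length of the longest transcript, Gapdhs to Gapdh ran from 26.6 to 52.1, Pgk2 to Pgk1 from 36.5 to 54.8, Ldhc to Ldha from 2.82 to 3.14, Ldhc to Ldhb from 16.8 to 26.6 and Eno4 to Eno1 from 0.109 to 0.161. With the transcript of the longest coding sequence Gapdhs to Gapdh ran from 10.3 to 20.2. Adding the counts of near-identical copies changed the log2 difference of Gapdhs to Gapdh from -0.18 to -0.13 and that of Eno4 to Eno1 from 0.35 to 0.33. Any reads counted for neither a gene nor its copies are not restored by this. The same limit holds for the ratio of Pgk2 to Pgk1.

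Pdha1 and Pdha2 form a further pair of the same kind, the X-linked and the testis-expressed autosomal gene of a pyruvate dehydrogenase subunit. Pdha2 exceeded Pdha1 per length 76.0-fold and 62.2-fold in the controls against 50.3-fold and 68.9-fold in the vKO-labelled libraries. The groups overlapped, at a log2 difference of -0.22 (exact two-sided permutation p = 0.667). Pdha1 itself had only 100 to 207 counts per library.

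The other genes of the pathway were set beside these as 6 lists of 55 genes, of which 51 were in the table and 50 were tested. None of the 50 passed in edgeR (0 calls), against 0.393% of all genes, and DESeq2 called 0 as well. At an unadjusted p under 0.05 there were 8 of 50, near the 14.1% of all genes, with 5 on the higher side (7.65% of all genes) and 3 on the lower (6.47%). The median log2 fold change was -0.03.

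Upper glycolysis had 10 genes tested, with 2 higher and 1 lower at an unadjusted p under 0.05 and a median log2 fold change of 0.13. The most abundant were Gpi1, the glucose-6-phosphate isomerase (600 ± 97.1 CPM in the controls against 519 ± 12.3 CPM with the vKO label, SD over 2 libraries each; log2 fold change -0.21, SE 0.13, without overlap), Aldoa, the main aldolase (log2 fold change 0.07, SE 0.12), and Tpi1, the triose phosphate isomerase (-0.01, SE 0.12). Lower glycolysis had 7 genes tested, with 2 higher, and a median of -0.02. Its most abundant genes were the phosphoglycerate mutase Pgam2 (569 ± 89.4 CPM in the controls against 560 ± 8.84 in the vKO-labelled libraries), the pyruvate kinase Pkm (412 ± 51.1 and 372 ± 0.417 CPM) and the bisphosphoglycerate mutase Bpgm, and none of these log2 fold changes exceeded 0.15 in size. None of the 6 genes passed.

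The list of sperm-enriched enzymes and their anchor had 6 genes, of which 5 had a log2 fold change below 0, with a median of -0.13. Akap4, the main fibrous sheath protein, had 1979 and 1675 CPM in the controls against 1487 and 1446 CPM in the vKO-labelled libraries. The log2 difference was -0.32 with SE 0.12 (edgeR adjusted p = 0.262), close to that of Pgk2. Ldhal6b, a lactate dehydrogenase-like retrogene, had a log2 fold change of -0.09 (SE 0.11), and Gk2, a testis glycerol kinase, one of -0.16 (SE 0.12). Neither was distinguishable from 0 at this number of libraries.

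Carriers of glucose and lactate had 10 genes tested, with a median of -0.11 and 1 gene higher at an unadjusted p under 0.05. The most abundant were Slc2a3, a glucose carrier (1104 ± 161 CPM in the controls against 892 ± 156 in the vKO-labelled libraries), Slc2a5 (689 ± 145 and 677 ± 19.6 CPM) and Slc16a7, with adjusted p-values in edgeR of 0.372, 0.964 and 0.871. Genes of pyruvate entry to mitochondria numbered 12, with 1 lower and a median of -0.03. Mpc2, a subunit of the pyruvate carrier, Pdhb, a pyruvate dehydrogenase subunit, and Pdk2 were the most abundant, with log2 fold changes of -0.09 (SE 0.12), -0.07 (SE 0.12) and 0.11 (SE 0.20). The 5 regulators of phosphofructokinase had 0 genes at an unadjusted p under 0.05 and a median of 0.03. Pfkfb3, Pfkfb4 (63.2 ± 7.17 CPM in the controls against 53.3 ± 2.35 in the vKO-labelled libraries) and Pfkfb2 led this list.

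**Figure D4:**
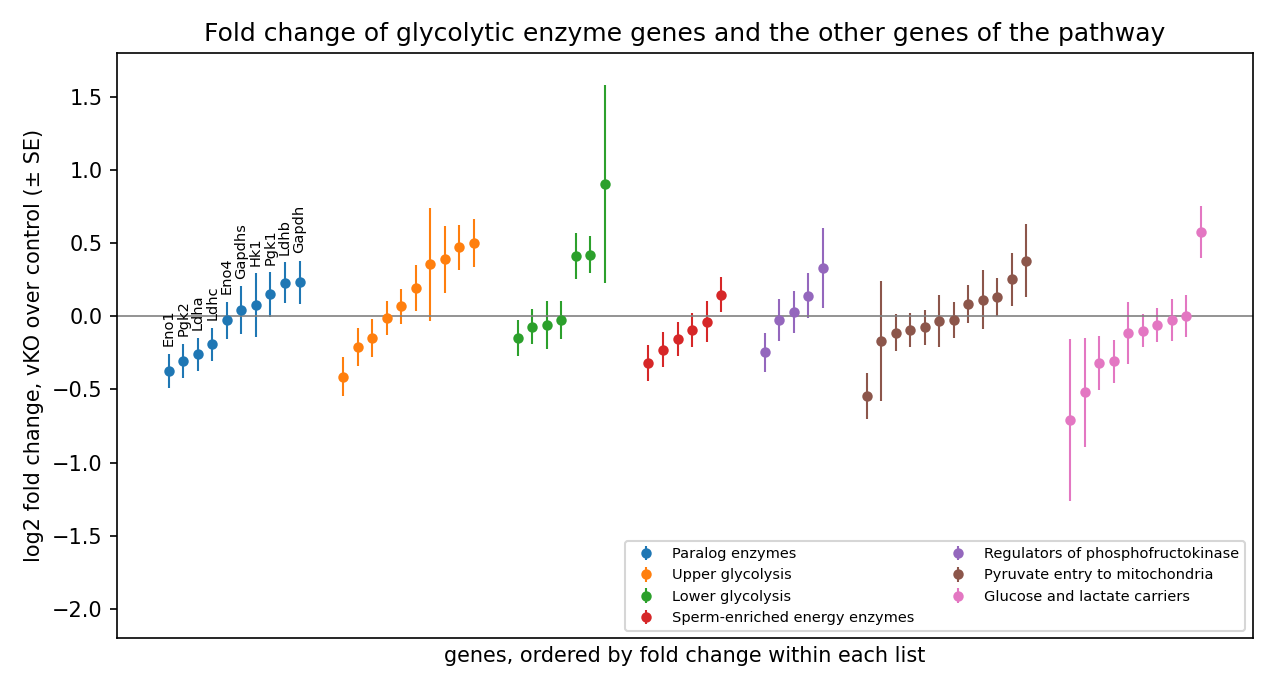
Log2 fold change of the libraries labelled vKO over control with its standard error, for the 10 paralog enzyme genes and the 50 other genes tested, grouped by list and ordered within it; every point is 1 gene. The 10 genes span -0.37 to 0.23, and the other lists spread around 0 as well.

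Of 71 marker genes tested, 1 was called, against 0.393% of all genes, and some of the 10 lists leaned to 1 side. All 10 Sertoli cell genes had a log2 fold change above 0, with a median of 0.46. Of these, 7 had an unadjusted p under 0.05, on the higher side, against 7.65% of all genes. Among them Wt1, a transcription factor of Sertoli cells, was called (log2 fold change 0.71, SE 0.13, edgeR adjusted p = 0.0418). Their summed level was 827 and 889 CPM in the controls against 1184 and 1037 CPM in the vKO-labelled libraries. For elongating spermatids 0 of 10 genes were above 0, the median was -0.27, and the sums were 11792 and 9848 against 9079 and 9403 CPM. In this list 4 genes had an unadjusted p under 0.05, on the lower side, against 6.47% of all genes. Spermatocyte genes had a median of -0.16 with 1 of 8 above 0, and round spermatid genes one of 0.02 with 4 of 8 above 0. Leydig cell genes had a median of 0.39 (7 of 7 above 0), spermatogonia 0.21 (7 of 8), endothelial cells 0.43 (4 of 5), erythrocytes 0.76 (4 of 4), macrophages 0.08 (5 of 6) and peritubular myoid cells -0.05 (2 of 5). At an unadjusted p under 0.05 there were also 4 Leydig cell, 3 erythrocyte, 2 spermatogonia and 1 endothelial gene on the higher side. On the lower side there was 1 spermatocyte gene, and the round spermatid, myoid and macrophage lists had 0. In whole testis, fewer cells of a type and less RNA per cell cannot be told apart.

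The control libraries also differed from each other in some of these lists. Control replicate 1 was above control replicate 2 in 10 of 10 elongating spermatid genes, with a median log2 difference of 0.25. It was below in 5 of 5 myoid genes (median -0.81) and 5 of 6 macrophage genes (-0.84). The median was -0.18 for round spermatids (2 of 8 higher in control replicate 1), -0.14 for spermatocytes (2 of 8) and -0.06 for Sertoli cells (2 of 10). It was -0.23 for Leydig cells (1 of 7), -0.21 for endothelial cells (2 of 5), -0.15 for erythrocytes (1 of 4) and 0.08 for spermatogonia (5 of 8). Among the 10 glycolytic genes the difference was 0.76 for Hk1, 0.56 for Gapdhs, -0.40 for Gapdh and -0.35 for Ldhb. It was 0.15 for Eno4, 0.10 for Ldhc, 0.09 for Pgk2, -0.0016 for Ldha, -0.08 for Eno1 and -0.10 for Pgk1. Control replicates 1 and 2 also had unlike correlations with GC content (0.02 and -0.40). All Sertoli cell and elongating spermatid markers had passed the filter on low counts, so none could have a mean level of 0. The part of these markers in the values of the glycolytic genes was not tested.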

How the data were processed

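RNA-seq counts of mouse testis were analysed for 2 control and 2 Ythdf2-vKO libraries. The authors deposited raw read counts per gene, per the file headers, with HISAT2 2.1.0 and HTSeq 0.6.1p1 named in the submitters' processing notes. The genome build and strand setting are not given in the sources used here. The deposited table also holds, per the file headers, a mean normalized signal, a log2 fold change, a Wald score, and p-values with adjusted p-values. Columns were read by position, because the first header name contains a tab.

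Counts were tested with edgeR 4.0.16 (R 4.3.3) by TMM scaling, filterByExpr and a robust quasi-likelihood fit of genotype, two-sided, with Benjamini-Hochberg adjustment over 21132 genes and calls at an adjusted p under 0.05. Intervals are 95% and unadjusted. Replicates of a group differed beyond sampling noise (chi-square per degree of freedom 21.2 and 8.41). Reads carry no molecular identifiers, so counting error understates the true error. Locations, lengths and GC content come from GENCODE M21 (GRCm38), matched by identifier. Copies were found with BLAST 2.17.0. Coding sequences were aligned with Biopython 1.88. Fits were tested on simulated data.

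Named genes are the 10 members, Ythdf2, from each pathway list every gene called and the 3 most abundant, Pdha1 with Pdha2, at most 3 near-identical copies per member, and the nearest profile of each member. Wt1, the only marker gene called, falls outside this rule and was named after its value was seen. Of 2 rows named Aldoa, the one with more counts was used. The members and lists were chosen with earlier results of these data known. Alternatives covered scaling, filtering, DESeq2 1.42.0, robust estimation, GC offset, replicate block, gene length, added copies and leaving out each library. Protein sequences were not used here.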

Additional observations from a re-analysis of the deposited data

How the results depend on the processing

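With 2 libraries per group, differences of the size seen in the 10 genes did not pass over all genes, and the control libraries disagree for Hk1, Gapdhs, Gapdh and Ldhb. The log2 fold changes of Pgk1, Pgk2, Eno1, Ldha, Ldhb, Ldhc and Gapdh kept their sign under all 13 alternatives run. That of Hk1 ran from -0.25 to 0.50 over left-out libraries and turned to -0.0440 with the GC offset, -0.0134 when the replicate block was joined to that offset, -0.25 without control replicate 2 and -0.0026 without vKO replicate 1. Gapdhs turned to -0.0525 and -0.0356 in the same fits and ran from -0.21 (without control replicate 2) to 0.35. Eno4 turned to 0.0408 with library totals alone, 0.0407 without control replicate 1 and 0.0093 without vKO replicate 2, and its lowest value was -0.0982. The Gapdhs/Gapdh difference ran from -0.66 to 0.31 over left-out libraries. The cause was not tested.

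Calls over all genes were 59 higher and 24 lower. They were 181 and 37 with library totals alone, 137 and 80 with DESeq2 and 89 and 67 with the GC offset. Without robust estimation, 15 were lower. Leaving out 1 library gave 30 to 1048 higher and 5 to 523 lower. Members called ran from 0 to 2 higher and 0 to 1 lower, and the other genes of glycolysis from 0 to 5 in each direction. Both groups number their replicates 1 and 2. Libraries with equal numbers deviated from their group means together only weakly (correlation 0.0909 over 17827 genes). With 2 libraries per group the deviations mirror each other, so this is a single contrast and does not establish a pairing of samples. The replicate block gave 627 higher and 390 lower calls and, among the other genes of glycolysis, 3 and 2, with no member called. The replicate block joined to the GC offset gave 288 and 310, 1 and 1 among the other genes of glycolysis, and 1 member lower, Eno1 (-0.54, adjusted p = 0.0128). Ythdf2 passed in that fit (0.40, adjusted p = 0.0365). Its adjusted p ranged from 0.0365 to 0.292 over the alternatives that kept all libraries.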
